A study of Mus musculus with 4 samples.

Results

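The 10 elastic fibre genes Eln, Fbn1, Fbln1, Fbln2, Fbln5, Efemp2, Mfap2, Mfap4, Mfap5 and Emilin1 were followed by cell class and by day in mouse carotid arteries before and after wire injury. They were chosen by name, as genes of the elastic fibre and its microfibrils, and all 10 were found among the 31053 genes of the count tables. The series holds 4 single-cell RNA-sequencing libraries, 1 from before injury (day 0) and 1 each from days 3, 7 and 14 after it. All came from C57BL/6 mice whose age was given as 11 weeks before injury, with no transgene or drug named for any group. Per the study's methods, the injury was made on the left carotid of male mice, several vessels were pooled for each day after injury, thrombosed vessels were discarded and dead cells were removed after digestion. With 1 library a day there were no replicates, so no test between days was possible. Every interval below is a 95% interval that covers counting error only, and a difference between days cannot be told apart from a difference between libraries or digests.

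Elastic fibres give arteries their recoil. Soluble tropoelastin, encoded by Eln, is gathered with the help of fibulins, laid onto a scaffold of fibrillin microfibrils and crosslinked by lysyl oxidases into an insoluble core. In the arterial wall the elastic layers of the media are made largely by smooth muscle cells, mostly early in life, and the adventitia around them is rich in fibroblasts. Wire injury strips the endothelium and stretches the media. Per the study, its deep form, used here, also disrupts the internal elastic lamina. Mature elastin is long-lived, so RNA levels do not give the amount of fibre present.

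Cell barcodes numbered 333, 1689, 3001 and 1138 in the libraries of days 0, 3, 7 and 14, with between 2672722 and 27973418 unique molecular identifiers (UMIs), the counted RNA molecules. After filtering, 5621 of 6161 barcodes were kept. Some barcodes appeared in 2 libraries. Days 0 and 3 shared 152 barcodes, days 7 and 14 shared 64, days 3 and 7 shared 1 and no other pair shared any. In 214 of these cases the copy in one library was far shallower than its partner, with medians of 4.66% of the partner's UMIs for the 104 day 3 copies of day 0 barcodes, 0.915% for the 48 day 0 copies and 1.12% for the 62 day 14 copies. Such copies were 93 of the 194 fibroblast-like cells of day 3. Leaving the copies out kept the direction of all 80 ratios of sums that were repeated and all 32 of those past 2-fold. This was nearly fixed in advance, since copies hold few UMIs. The cluster with 91 of the 93 gave 1.73% of the class's UMIs on day 3. The 80 hold no smooth muscle-like ratio to day 0 and no endothelial-like ratio. Means of cells depended more on the copies, as given below. The copies are included in the values given here unless stated.

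Cells were clustered without the elastic fibre genes and named from marker genes. Fibroblast-like cells, in 5 clusters, numbered 232, 194, 105 and 444 on days 0, 3, 7 and 14. Smooth muscle-like cells numbered 16, 97, 74 and 78, endothelial-like cells 7, 40, 55 and 23, and immune-like cells 26, 1077, 1959 and 394. Levels are given as CPM, the UMIs of a gene per 1000000 UMIs summed over a class on a day. Levels of some of these markers follow as a description. They helped to name the classes, so they are no separate check of the names. Pdgfra stood at 477, 409.9, 238 and 257 CPM in fibroblast-like cells and at most 48.8 CPM in smooth muscle-like ones, whereas Myh11 stood at 5237, 1388, 1006 and 4016 CPM in smooth muscle-like cells and at most 8.95 CPM in fibroblast-like ones. Cdh5 lay between 468 and 706 CPM in endothelial-like cells.

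One cluster of 191 cells was held out of every class. Its leading genes by fold were Rgs5, a pericyte marker, and Wisp2, followed by Tnfrsf11b, Cthrc1, Kcnj15, Sfrp2 and Igf1. It met the level set for 12 fibroblast markers, with Col1a1 at 19134 CPM and Pdgfra at 128 CPM on day 7, but none of them was among its 10 leading genes, whereas a pericyte marker was. The Saa3 and Prg4 cluster described below also had no fibroblast marker among its 10 leading genes, but no pericyte marker there either, and was kept as fibroblast-like on its 13 markers. In the Rgs5 and Wisp2 cluster on day 7 the pericyte genes Notch3 and Higd1b stood at 9.05 and 0 CPM, and Myh11 at 3.81 CPM. The cluster held 1, 20, 95 and 75 cells of days 0, 3, 7 and 14 and is called the Rgs5 and Wisp2 cluster below. Its high Eln level was known before it was held out.

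Upstream DNA of 7 of the 10 genes could be read from a RefSeq promoter table (build GRCm38.p6); Eln, Mfap4 and Mfap5 were not listed. Windows of 150 bases before the start are shown, for every start listed, for Fbn1, Fbln1 and Fbln5. By summed level in fibroblast-like cells, Fbn1 was more than 2-fold higher on day 3 than on day 0, and Fbln1 and Fbln5 were more than 2-fold lower. As means of cells none of the 10 genes was past 2-fold there. With the copies left out of those means, 2 were higher and 3 lower. The 6 letters GGGCGG, or CCGCCC for the other strand, a form of the GC box bound by Sp1-type factors, are in capitals.
Fbn1, chr2:125506439-125506588, minus strand: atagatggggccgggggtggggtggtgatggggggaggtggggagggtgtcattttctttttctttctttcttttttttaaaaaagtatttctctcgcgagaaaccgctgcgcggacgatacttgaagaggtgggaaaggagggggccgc
Fbln5, start 1, chr12:101819120-101819269, minus strand: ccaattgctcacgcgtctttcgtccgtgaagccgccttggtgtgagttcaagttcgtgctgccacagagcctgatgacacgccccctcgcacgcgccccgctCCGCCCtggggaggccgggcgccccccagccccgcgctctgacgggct
Fbln5, start 2, chr12:101818485-101818634, minus strand: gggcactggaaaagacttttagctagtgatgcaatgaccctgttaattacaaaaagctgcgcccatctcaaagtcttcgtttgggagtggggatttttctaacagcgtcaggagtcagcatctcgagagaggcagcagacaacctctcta
Fbln1, start 1, chr15:85205799-85205948, plus strand: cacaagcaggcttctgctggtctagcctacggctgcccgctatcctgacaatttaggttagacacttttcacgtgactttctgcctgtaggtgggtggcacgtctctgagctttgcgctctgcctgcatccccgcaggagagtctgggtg
Fbln1, start 2, chr15:85205858-85206007, plus strand: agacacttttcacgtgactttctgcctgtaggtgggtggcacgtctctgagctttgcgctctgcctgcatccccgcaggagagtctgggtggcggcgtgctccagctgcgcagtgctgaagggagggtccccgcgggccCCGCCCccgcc
For Fbln5 and for Fbln1, 1 of the 2 windows held a match and the other held none, as did the single Fbn1 window. Over the 12 listed starts of the 7 genes, some of which overlap, 7 windows held a match. Of 32851 promoter windows of the same length, 28.6% held one, so a match is common and is given as a description of the sequence alone.

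Eln (ENSMUSG00000029675), the gene for the elastic core, was highest on day 7 in fibroblast-like cells and on day 14 in smooth muscle-like cells. In fibroblast-like cells it stood at 1939.9 CPM on day 0 (1882 to 1999), 2353 on day 3 (2308 to 2400), 7223 on day 7 (7126 to 7322) and 3070.2 on day 14 (3032 to 3109). The ratio of day 7 to day 0 was 3.72 (3.60 to 3.85), and that of day 14 to day 7 was 0.425 (0.417 to 0.433). In smooth muscle-like cells Eln stood at 3566 CPM on day 0 (3209 to 3953), 7882 on day 3 (7777 to 7988), 6876 on day 7 (6768 to 6984) and 12699.7 on day 14 (12506 to 12896). The smooth muscle-like level on day 14 was 3.56 times as high as on day 0 (3.21 to 3.96), where it rested on 16 cells, and 1.61 times as high as on day 3 (1.58 to 1.64). The median cell of the main smooth muscle-like cluster, led by Myh11 and Tagln, did not move in this way, with 0.642%, 0.576% and 0.598% of its UMIs from Eln on days 3, 7 and 14, while the highest cell went from 3.02% to 4.55% and 10.2%.

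The highest Eln level of any group was that of the Rgs5 and Wisp2 cluster on day 7. It stood there at 1118 CPM on day 3 (1059 to 1179), 29328 on day 7 (29097 to 29561) and 10546 on day 14 (10350 to 10745). As a mean of the cells' own levels it stood at 4678 CPM on day 3 and 31784 on day 7, a ratio of 6.79, against 26.2 for the sums (24.9 to 27.7), so the size of this difference depends on the measure. The summed day 7 level was 4.06 times as high as in the fibroblast-like class on the same day (4.00 to 4.12). On day 7 the median cell of the cluster gave 2.83% of its UMIs to Eln and the highest cell 14.4%. Its 95 cells held 57.1% of all Eln UMIs of the day 7 library, against 19.5% in the fibroblast-like and 14.5% in the smooth muscle-like cells.

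The share of cells with an Eln UMI is read against immune-like cells, which are not a main source of elastin. With each cell thinned to 1000 UMIs and the shallow copies left out, 56.0% of fibroblast-like cells had one on day 0, 53.0% on day 3, 67.0% on day 7 and 60.1% on day 14. Without thinning the shares were 79.3%, 96.0%, 93.3% and 91.9%. Thinned shares of smooth muscle-like cells were 62.5%, 86.7%, 91.8% and 95.8%, with 8 cells on day 0. Among thinned immune-like cells the shares were 3.85%, 4.98%, 26.5% and 13.2%. The neutrophil-like cells among them had a higher share on day 7, 48.6% (38.8 to 58.5), and Eln stood there at 587 CPM. The fibroblast-like share on day 7 had an interval of 57.03 to 75.94, which touches that of the neutrophil-like cells, whereas the smooth muscle-like interval, 83.0 to 96.9, does not. Of the 393 shallow barcodes of day 7 that received no class, 95 reached 1000 UMIs, and 94.7% of those had an Eln UMI (88.1 to 98.3), with Eln at 8864 CPM over the 393. Neither class had a higher share or summed Eln level than these barcodes on day 7, and the part of free RNA in the day 7 values was not tested. Median depths on day 7 were 24971 UMIs in fibroblast-like cells, 17198.5 in smooth muscle-like cells and 3031 in neutrophil-like cells.

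**Figure D1:**
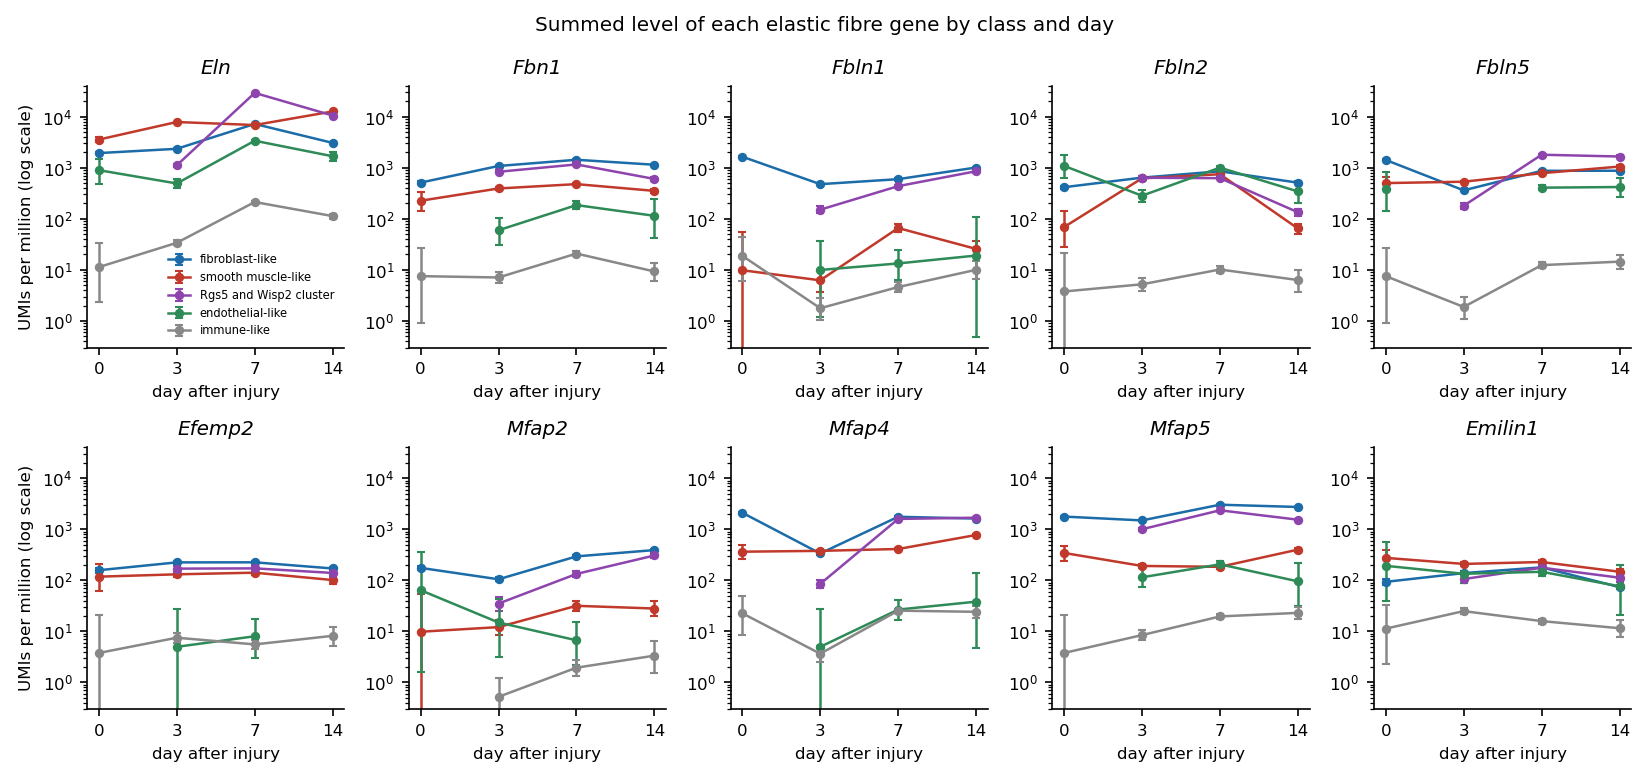
Summed level (CPM, log axis) of each elastic fibre gene by day after injury, 1 panel a gene and 1 line a class; bars are exact Poisson 95% intervals, sums of 0 UMIs and the single day 0 cell of the Rgs5 and Wisp2 cluster are not drawn. Eln reached 29328 CPM in the Rgs5 and Wisp2 cluster on day 7, and immune-like cells lay lowest in most panels.

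In fibroblast-like cells the 10 genes did not move together. On day 3 against day 0, 1 of 10 was 2-fold or more higher and 3 were 2-fold or more lower, where 3.99% and 4.85% of all 8687 genes compared were. On day 7, 3 were higher and 1 lower (5.01% and 3.91% of genes), and on day 14, 2 were higher and none lower (3.29% and 2.27%), with Eln at 1.58 times and Fbln1 at 0.614 times day 0. These counts use the ratio with 10 CPM added to both levels. As the mean of each cell's own level, in which the 93 shallow copies of day 3 weigh as much as other cells, none of the 4 calls of day 3 was kept, and 0 genes were higher and 0 lower. With that mean and without the copies, 2 were higher and 3 lower. The median log2 ratio of the 10 genes was 0.01, 0.74 and 0.20 on the 3 days, beside -0.10, -0.03 and -0.04 over all genes compared. The 3 comparisons share the day 0 library.

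**Figure D2:**
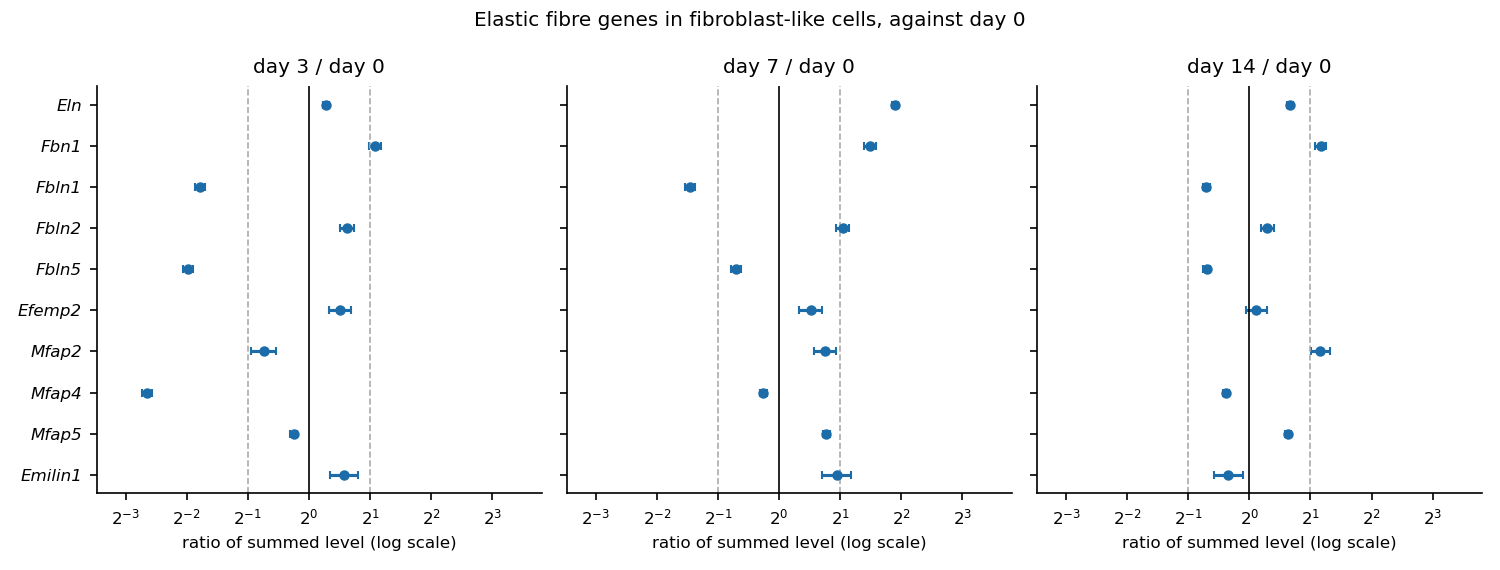
Ratio of each gene's summed level in fibroblast-like cells to that of day 0 (log axis), 1 panel a day; bars are exact 95% counting intervals and dashed lines mark 2-fold. Mfap4, Fbln5 and Fbln1 lay left of the lower line on day 3, Fbn1 lay right of the upper line on all 3 days, and Eln did so on day 7.

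Of the microfibril genes, Fbn1 (ENSMUSG00000027204) encodes fibrillin-1, the backbone of the microfibril. It stood at 511 CPM on day 0 (482 to 542), 1084 on day 3 (1053 to 1115), 1435 on day 7 (1392 to 1479) and 1146 on day 14 (1123 to 1170) in fibroblast-like cells. It was thus 2.12 to 2.81 times its day 0 level on each later day.

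Mfap4 (ENSMUSG00000042436), whose product binds tropoelastin and fibrillin microfibrils, went the other way first. It stood at 2110.2 CPM on day 0 (2050 to 2172), 336 on day 3 (319 to 353), 1757 on day 7 (1710 to 1806) and 1621 on day 14 (1593 to 1649). Its day 3 level was 0.159 times that of day 0 (0.150 to 0.169), the lowest ratio of the 10 genes in this class on that day, and the levels of days 7 and 14 were back within 2-fold of day 0. As a mean of cells Mfap4 stood at 2193 CPM on day 0 and 1317 CPM on day 3, a log2 ratio of -0.73, which was -2.01 without the copies.

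Mfap2 (ENSMUSG00000060572) and Mfap5 (ENSMUSG00000030116) encode small glycoproteins of the microfibril, MAGP-1 and MAGP-2. Mfap2 stood at 175, 105, 294 and 391 CPM on days 0, 3, 7 and 14, and its day 14 level was 2.23 times that of day 0 (2.01 to 2.49). The log2 ratio of 1.11 for Mfap2 became 0.83 as the mean of cells, 0.76 with thinning and 0.50 in the Rbp4 and Fmo2 cluster alone. Mfap5 stood at 1773, 1491, 3028 and 2734 CPM. It was 2.03 times as high on day 7 as on day 3 (1.97 to 2.10) and stayed within 2-fold of day 0 throughout.

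The fibulins link tropoelastin, microfibrils and crosslinking enzymes. Fbln5 (ENSMUSG00000021186), whose product is needed for elastic fibre assembly, stood at 1423 CPM on day 0 (1374 to 1474), 361 on day 3 (343 to 379), 872 on day 7 (839 to 907) and 875 on day 14 (855 to 896). Fbln1 (ENSMUSG00000006369), found in the elastin core and in basement membranes, stood at 1648, 477, 598 and 1012 CPM. On day 3 they were 0.254 (0.239 to 0.270) and 0.290 (0.274 to 0.306) times their day 0 levels, and neither had regained it by day 14, when they were 0.615 and 0.614 times day 0. As means of cells the day 3 log2 ratios were -0.31 for Fbln5 and -0.81 for Fbln1, and -1.30 and -1.34 without the copies, beside -1.95 and -1.77 for the sums.

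Fbln2 (ENSMUSG00000064080), which joins microfibrils to other matrix and basement membrane, stood at 416, 641, 854 and 510.4 CPM and was 2.05 times its day 0 level on day 7 (1.90 to 2.22), a log2 ratio of 1.02 that fell short of 2-fold under 9 of 12 other choices, down to 0.36 in the Rbp4 and Fmo2 cluster alone. Efemp2 (ENSMUSG00000024909), or fibulin-4, which brings lysyl oxidase to tropoelastin, varied least of the fibulins, with 158, 224, 225 and 171 CPM and ratios to day 0 between 1.08 and 1.43. Emilin1 (ENSMUSG00000029163), found between the elastic core and the microfibrils, stood at 93.3, 138, 179 and 73.5 CPM. It was 0.410 times as high on day 14 as on day 7 (0.363 to 0.462).

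Against day 3, on day 7 fibroblast-like cells had 5 of 10 genes 2-fold or more higher and none lower (2.14% and 0.829% of genes), namely Eln, Fbln5, Mfap2, Mfap4 and Mfap5. Mfap4 had the largest of these ratios, 5.24 (4.94 to 5.55). As means of cells only Eln was past 2-fold, at 2.43 times, and Fbln5 was 0.762 times as high. With the copies left out of those means only Mfap4 was, at 3.21 times, with Eln at 1.74 and Fbln5 at 1.53 times. On day 14 against day 7, Eln and Emilin1 were lower and none was higher (1.49% and 1.51% of genes), and as means of cells Eln alone was lower, at 0.379 times, with Emilin1 at 0.523 times.

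The makeup of the fibroblast-like class differed between days, and the class totals rested on few clusters. On day 3, 44 cells of a cluster led by Saa3, an acute-phase gene, and Prg4, which encodes the lubricating proteoglycan lubricin, with a median of 64052 UMIs, gave 67.8% of the class's UMIs. On day 0 a cluster led by Rbp4 and Fmo2 gave 80.2%, and on day 14 a cluster led by C1qtnf3 and Angptl1, with no cell on days 0 and 3, gave 66.1%. The part of makeup in the day ratios was not tested, but the levels within clusters stand beside them as follows.

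Within the Rbp4 and Fmo2 cluster, the only deep one with over 20 cells on each day, Eln stood at 2352, 7333, 10839 and 3423 CPM on days 0, 3, 7 and 14. Eln was therefore 2-fold or more higher than on day 0 already on day 3 here, whereas in the whole class the day 3 ratio was 1.21 (1.17 to 1.26). Without the Saa3 and Prg4 cluster, where Eln stood at 223 CPM on day 3 and 1053 CPM on day 7, the log2 ratio of the class on day 3 was 1.81 in place of 0.28. Without doublet removal it was -1.86, so the direction of Eln in the class on day 3 depends on which cells are summed.

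Fbn1 stood at 375, 1028, 907 and 438 CPM in the Rbp4 and Fmo2 cluster, so its day 14 level there was near that of day 0. Mfap4 stood at 2569, 693, 2675 and 1788 CPM, Fbln5 at 1666, 709, 1256 and 975 CPM, and Fbln1 at 1795, 632, 1002 and 1287 CPM. Fbln2 stood at 323, 353, 418 and 133 CPM there, so on day 14 it was below its day 0 level, a log2 ratio of -1.22, where the class gave 0.29. The dips of Mfap4, Fbln5 and Fbln1 on day 3 were thus seen within this cluster too, and Mfap4 was lower still in the Saa3 and Prg4 cluster on that day, at 139 CPM. When the non-immune cells were clustered again, 76 day 3 fibroblast-like cells fell into a deep sub-cluster that also held smooth muscle-like cells. Mfap4 stood at 299 CPM in them and Fbln5 at 335 CPM. In the other 118, with a median of 816 UMIs, they stood at 803 and 692 CPM. Shallow copies of day 0 barcodes were 93 of the 194 day 3 cells. Of these, 91 lay in the Rbp4 and Pcolce2 cluster, which had a median of 760.5 UMIs on day 3. The levels of the 118 cells without copies were not computed. Over the whole class without copies, Mfap4 stood at 306 CPM and Fbln5 at 340 CPM on day 3.

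A cluster led by Igfbp5 and Sema3c, which also had Pi16 and Cd248 among its leading genes, was seen with 25 cells on day 0 and 47 on day 14. Its Fbn1 level was 1122 CPM on day 0 and 4344 CPM on day 14, the highest Fbn1 level of the clusters and days with at least 20 cells, and Mfap5 stood at 3136 and 5369.7 CPM. Eln was low there, at 136 and 1364 CPM, and Fbln1 went from 1099.5 to 305 CPM. In the C1qtnf3 and Angptl1 cluster, with 38 cells on day 7 and 250 on day 14, Eln went from 12639 to 3254 CPM, while Fbln1 went from 354 to 1043 CPM.

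**Figure D3:**
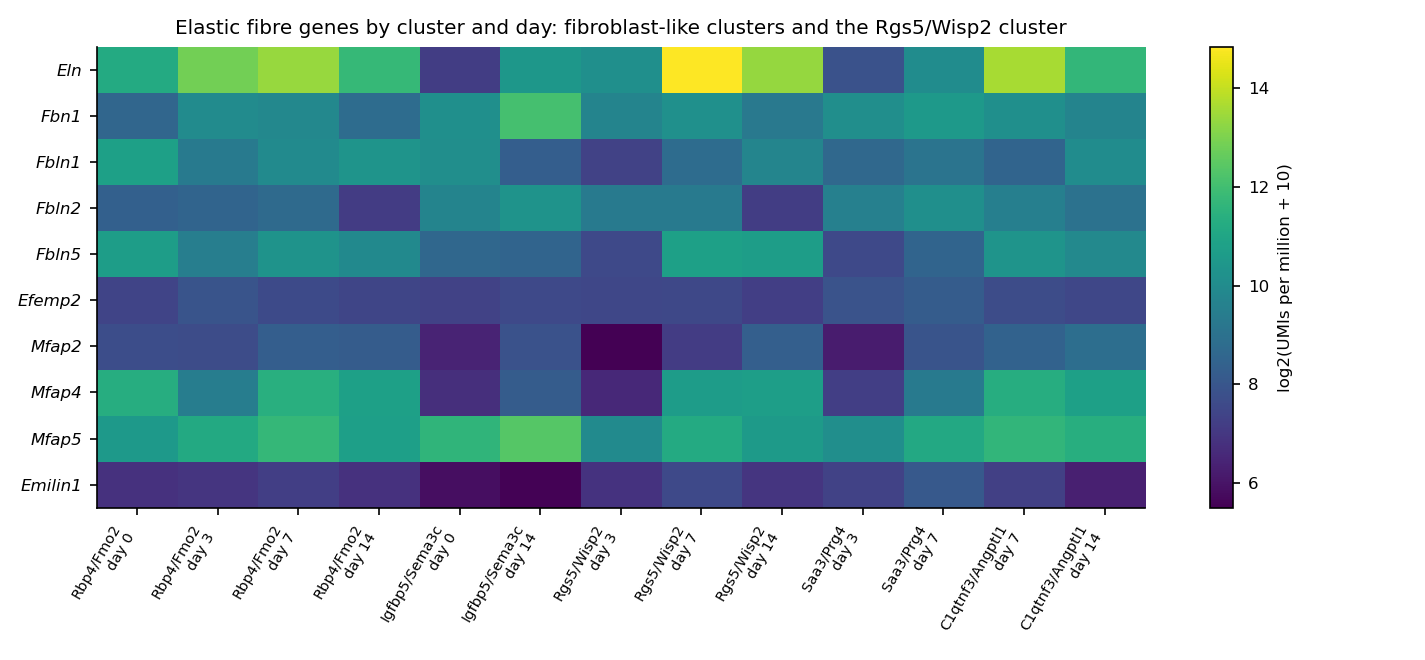
Level of each elastic fibre gene (colour, log2 of CPM with 10 added) in each fibroblast-like cluster and in the Rgs5 and Wisp2 cluster, by day; columns hold at least 20 cells, and the shallow Rbp4 and Pcolce2 cluster is left out. Eln ranged from 136 CPM in the Igfbp5 and Sema3c cluster on day 0 to 29328 CPM in the Rgs5 and Wisp2 cluster on day 7.

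In the Rgs5 and Wisp2 cluster 6 of 10 genes were 2-fold or more higher on day 7 than on day 3 and none was lower, where 5.74% and 7.66% of all genes were. The day 3 sum came from 20 cells with a median of 62097.5 UMIs, and the day 7 sum from 95 cells with a median of 12660 UMIs. In the second clustering of the non-immune cells, 16 of the 20 day 3 cells and 32 of the 95 day 7 cells fell into a deep sub-cluster that also held fibroblast-like and smooth muscle-like cells. Within it the Eln ratio of day 7 to day 3 was 23.4 (22.1 to 24.7). In the other cells, which were 4 on day 3, it was 4.58 (3.501 to 6.12).

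Besides Eln, Mfap4 went from 85.1 to 1595 CPM, a ratio of 18.7 (15.4 to 23.1), and Fbln5 from 180.2 to 1801 CPM, a ratio of 10.0 (8.71 to 11.5). As means of cells the ratios were 7.86 for Mfap4 and 4.30 for Fbln5, and 4 of 10 genes were past 2-fold, all higher. Fbln1, Mfap2 and Mfap5 had ratios of sums of 2.89, 3.81 and 2.35, and of means of 1.17, 3.47 and 1.79. Outside the deep sub-cluster, with 4 cells on day 3, Mfap2, Mfap5 and Emilin1 stood at 0 CPM on that day. The ratios there were 4.50 for Mfap4 (1.54 to 21.9), 6.82 for Fbln5 (1.88 to 56.3) and 2.33 for Fbn1 (0.793 to 11.3). The Fbln1 ratio there was 0.478 (0.240 to 1.11), the other way from its ratio of sums. The intervals of Fbn1 and Fbln1 included 1. Over the whole cluster Fbn1, Fbln2, Efemp2 and Emilin1 had ratios of sums between 0.982 and 1.67.

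On day 14 against day 7, Eln and Fbln2 were lower in this cluster and Mfap2 was higher (2.21% of genes were lower and 2.82% higher), and as means of cells Fbn1 was lower too. Fbln2 went from 626 to 135 CPM, a ratio of 0.215 (0.179 to 0.256), and Mfap2 from 133 to 307 CPM, a ratio of 2.30 (1.95 to 2.71). Fbln5 and Mfap4 were level, at 1662 and 1685 CPM on day 14.

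Set against the fibroblast-like class of the same library, the cluster had 4 of 10 genes lower and none higher on day 3 (3.29% and 6.53% of genes), namely Eln, Fbln1, Mfap2 and Mfap4. As a mean of cells Eln went the other way, with 4678 CPM in the cluster and 2977 CPM in the fibroblast-like class on day 3, or 4159 CPM without the copies. On day 7 Eln and Fbln5 were higher and Mfap2 was lower (1.70% and 2.02% of genes), and on day 14 Eln was higher, 3.43 times (3.36 to 3.51), and Fbln2 lower (2.01% and 2.13%). As means of cells Fbln5 fell short of 2-fold on day 7, at 1.55 times. On day 14 Fbn1 and Mfap5 were lower too by that measure, at 0.491 and 0.460 times. The collagen gene Col1a1 stood at 10483, 19134 and 19331 CPM on days 3, 7 and 14 in the cluster. Eln UMIs per Col1a1 UMI were 0.107, 1.53 and 0.546 there, against 0.171, 0.339 and 0.148 in the fibroblast-like class. On day 0 the fibroblast-like value was 0.387, above that of day 7.

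Since the Rgs5 and Wisp2 cluster shares most fibroblast markers, the class was also summed with it. The Eln log2 ratio to day 0 was then 3.09 in place of 1.89 on day 7 and 1.02 in place of 0.66 on day 14.

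**Figure D4:**
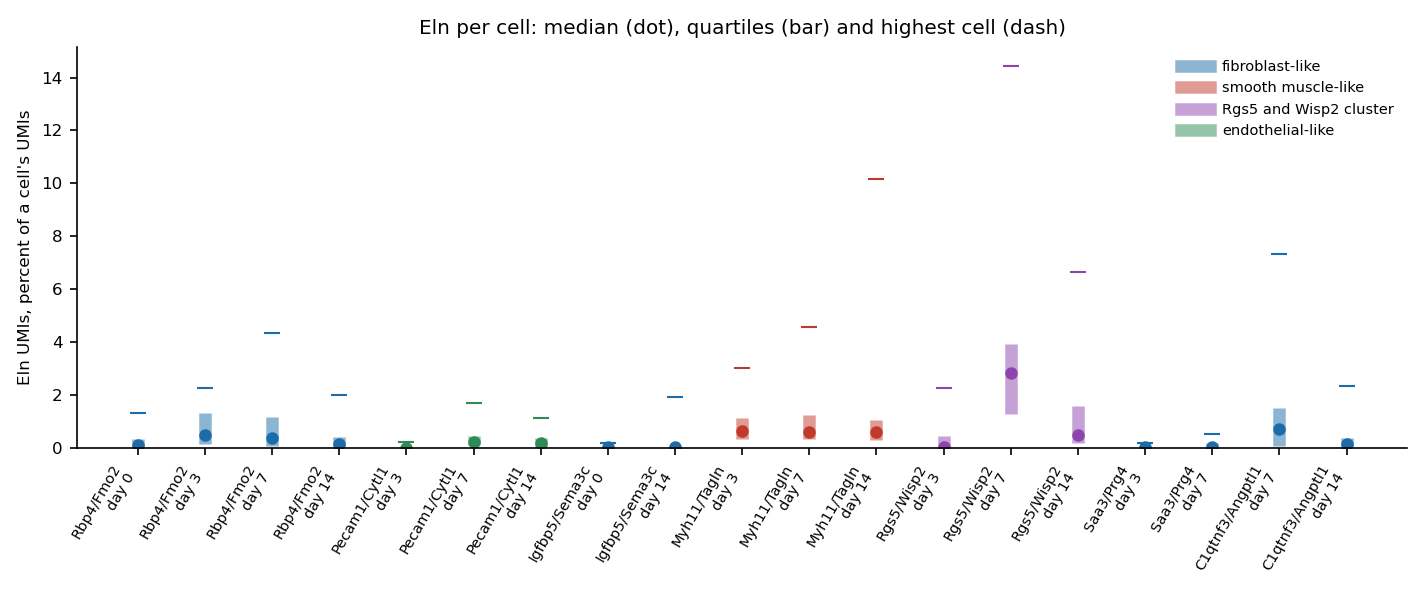
Eln as a percent of each cell's UMIs, by non-immune cluster and day with at least 20 cells, with the median (dot), the quartiles (bar) and the highest cell (dash); the 2 shallow clusters led by Rbp4 and Pcolce2 and by Hspb7 and Tpm2 are left out. The Rgs5 and Wisp2 cluster had a median of 0.0251% on day 3, 2.83% on day 7 and 0.485% on day 14, and single cells of several clusters lay far above their median.

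Smooth muscle-like cells could be compared between days 3, 7 and 14, since day 0 had 16 cells, 5 of them shallow copies. On day 7 against day 3, Fbln1 alone of the 10 genes was past 2-fold with 10 CPM added, at a plain ratio of 10.6 (6.39 to 18.6), where 2.22% of genes were higher and 0.901% lower. Its level went from 6.24 to 66.0 CPM, low beside the fibroblast-like 477 and 598 CPM. The plain ratio of Mfap2, from 12.1 to 31.7 CPM, was 2.61 (1.71 to 4.08), and with 1 CPM added 2 genes were past 2-fold. On day 14 against day 3, Fbln1, Mfap4 and Mfap5 were higher and Fbln2 was lower (2.23% and 3.64% of genes). The Fbln1 log2 ratio of 1.14 became -0.113 at resolution 2 of the clustering, so its direction is not settled. Between days 7 and 14, Mfap5 was higher and Fbln1 and Fbln2 were lower (2.93% and 6.66%), and as means of cells Fbln2 alone was past 2-fold, with Mfap5 at 2.002 times before 10 CPM was added. The median log2 ratios of the 10 genes against day 3 were 0.19 and 0.73.

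Mfap4 in smooth muscle-like cells stood at 364, 378, 411 and 773 CPM on days 0, 3, 7 and 14, with a day 14 level 2.05 times that of day 3 (1.87 to 2.24). The values of days 3 and 7 joined unlike cells, and without the deep cells described in the next paragraph that ratio was 1.16 (1.06 to 1.27). Mfap5 stood at 344, 191, 184 and 399 CPM, with a ratio of 2.09 (1.85 to 2.36) between days 14 and 3. The log2 ratio of 1.02 for Mfap5 lay just past 2-fold and became 0.35 at resolution 2 of the clustering and between 0.83 and 0.97 under 4 other choices. Fbln5 stood at 501, 533, 783 and 1057 CPM and fell short of 2-fold over day 3, at 1.98 times (1.84 to 2.14). Emilin1 had its highest summed level on day 0, 275 CPM (183 to 398), and stood at 209.5, 228 and 147 CPM afterwards, of which the values of days 3 and 7 lay within that interval. As a mean of cells Emilin1 was lowest on day 0, at 139 CPM, against 221, 219 and 186 CPM on days 3, 7 and 14. The place of day 0 therefore depends on the measure.

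Fbln2 showed the largest swing in this class. It stood at 68.8 CPM on day 0 (27.7 to 142), 620.5 on day 3 (591 to 651), 747 on day 7 (712 to 783) and 64.6 on day 14 (51.5 to 80.1), and the day 14 level was 0.104 times that of day 3 (0.0825 to 0.130). The day 0 level rested on 7 UMIs and was 30.5 CPM without the shallow copies, so days 0 and 14 cannot be ordered. The high values sat mainly in 20 day 3 and 27 day 7 smooth muscle-like cells that fell into a deep sub-cluster together with fibroblast-like cells when the non-immune cells were clustered again. Their median depths were 52421 and 54496 UMIs, Fbln2 stood at 1090.4 and 1018 CPM in them, and Myh11 at 482 and 135 CPM. In the other smooth muscle-like cells of those days Fbln2 stood at 193 and 67.8 CPM and Myh11 at 2211 and 3190 CPM. Fbln1 likewise stood at 88.6 CPM in these deep cells on day 7 and at 9.25 CPM in the others. Mfap4 was low in the deep cells, at 54.7 and 148 CPM on days 3 and 7, and stood at 671 and 1068 CPM in the others. Without the deep cells, none of the 10 genes was 2-fold or more higher on day 7 than on day 3 and 1, Fbln2, was 2-fold or more lower, with Mfap4 at 1.59 times (1.44 to 1.76). On day 14 against day 3 the counts past 2-fold were 1 higher, Mfap5, and 1 lower, Fbln2. Between days 7 and 14 the ratios without them were 2.66 for Fbln1 (1.09 to 7.78), which rested on 6 UMIs on day 7, 0.969 for Fbln2, 0.730 for Mfap4 (0.661 to 0.805) and 1.73 for Mfap5 (1.44 to 2.09).

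Eln in smooth muscle-like cells stood at 6842 and 6369 CPM in the deep cells and at 8827 and 8146 CPM in the others on days 3 and 7. Eln per Col1a1 UMI was 8.25, 2.84, 1.196 and 5.71 in the class on days 0, 3, 7 and 14. The low value of day 7 came with the deep cells, which held 11875 of the 13077 Col1a1 UMIs of the class on that day. In the other cells Eln per Col1a1 UMI was 3.35 on day 3 and 4.396 on day 7, against 2.34 and 0.872 in the deep cells.

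Within each library, smooth muscle-like cells had lower levels of several of the genes than fibroblast-like cells, and a higher Eln level on days 3 and 14. On day 0, 7 of 10 genes were 2-fold or more lower and 1 higher, where 23.2% and 12.1% of genes were. As means of cells 6 were lower and none higher on day 0, with Fbln2 at 0.645 times. With the copies left out of those means 7 were lower and 1 higher. On day 3, 4 were lower and 1 higher (7.45% and 9.68%), on day 7, 5 were lower and none higher (5.96% and 6.97%), and on day 14, 6 were lower and 1 higher (9.43% and 8.51%). The gene that was higher was Emilin1 on day 0, at 2.95 times (1.91 to 4.39), and Eln on days 3 and 14. As means of cells Emilin1 was 1.62 times as high on day 0, short of 2-fold, and 2.36 times without the copies.

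Fbn1, Fbln1, Mfap2 and Mfap5 were 2-fold or more lower in smooth muscle-like cells on all 4 days. Fbln1 had ratios between 0.00596 and 0.110, the day 0 value resting on 1 UMI with an interval of 0.000151 to 0.0332. Mfap5 had ratios between 0.0607 and 0.194, and Fbn1 between 0.308 and 0.442. Efemp2 stayed within 2-fold on each day, with ratios between 0.584 and 0.748.

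The Eln ratio of smooth muscle-like to fibroblast-like cells was 1.84 on day 0 (1.65 to 2.05), 3.35 on day 3 (3.27 to 3.43), 0.952 on day 7 (0.932 to 0.972) and 4.14 on day 14 (4.06 to 4.22). These sums were near each other on day 7 and apart on days 3 and 14. The day 14 log2 ratio of 2.04 for Eln became 0.97 with each library clustered on its own and stayed past 2-fold under the other choices tried. The day 3 value of 1.74 became 0.20 without the Saa3 and Prg4 cluster, 0.80 with thinning and 0.70 as the mean of cells without copies, and the day 7 value of -0.07 became -1.26 with the Rgs5 and Wisp2 cluster in the fibroblast-like class.

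**Figure D5:**
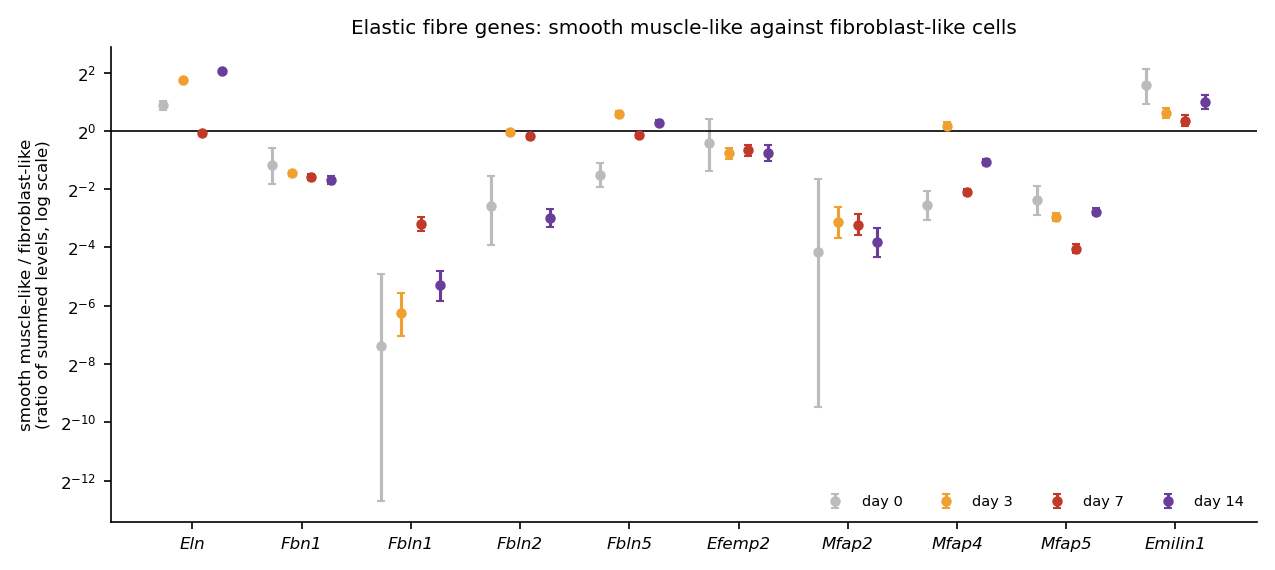
Ratio of smooth muscle-like to fibroblast-like summed level of each gene (log axis) within each library; bars are exact 95% counting intervals. Eln lay above 1 on days 0, 3 and 14, and Fbn1, Fbln1, Mfap2 and Mfap5 lay below 1 on all 4 days.

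Endothelial-like cells were few and shallow, with median depths between 876 and 1706 UMIs. Eln stood at 898 CPM on day 0 (491 to 1506), 492 on day 3 (400 to 600), 3387 on day 7 (3257 to 3522) and 1679 on day 14 (1346 to 2068). Of the 7 genes with enough UMIs to compare, 5 were higher on day 7 than on day 3 and none lower (11.1% and 5.68% of genes), namely Eln, Fbn1, Fbln2, Fbln5 and Mfap4. The Mfap4 ratio of 5.37 rested on 1 UMI on day 3, with an interval of 0.859 to 223. Fbln5 had 0 UMIs on day 3 and stood at 407 CPM on day 7, at least 22.1-fold higher by the lower exact limit of the ratio. As means of cells 7 genes were higher on day 7 than on day 3, with Fbln1 and Emilin1 added, and Eln was 11.0 times as high. Emilin1 went from 14.6 to 135 CPM by that measure, whereas its sums stood at 134 and 147 CPM. On day 14 against day 7, 3 were lower and none higher (26.0% and 7.49%), and as means of cells 1 was lower, Mfap4. With the copies left out of those means 2 were lower, Fbn1 and Fbln2, and Mfap4 was not.

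These cells lie near the shallow barcodes that received no class, which on day 7 numbered 393 with a median of 761 UMIs and had Eln at 8864, Fbln5 at 523, Mfap4 at 942 and Fbln2 at 349.5 CPM. Eln, Fbln5 and Mfap4 in endothelial-like cells did not exceed those levels, and the part of free RNA in them was not tested.

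Fbln2 exceeded that level in endothelial-like cells on day 7. It stood at 1090.1, 284, 1006 and 343 CPM on days 0, 3, 7 and 14, and as a mean of cells at 262, 36.9, 686 and 482 CPM. The day 0 value rested on 17 UMIs in 7 cells (635 to 1745 CPM). Its summed level on day 7 was 1.18 times the fibroblast-like one (1.08 to 1.28), and its mean of cells 0.906 times, so the 2 classes cannot be ordered. It gave a UMI in 63.9% (46.2 to 79.2) of thinned endothelial-like cells on day 7, in 30.5% (21.5 to 40.8) of the barcodes without a class and in 1.36% of immune-like cells. The fibroblast gene Col1a1 stood at 238 CPM in endothelial-like cells on day 7, and Eln UMIs per Col1a1 UMI were 14.2 there, 0.339 in fibroblast-like, 1.196 in smooth muscle-like and 1.16 in immune-like cells of the same library. In the 23 endothelial-like cells of day 14 the macrophage gene Lyz2 stood at 1240.03 CPM and Ptprc at 172 CPM, and their part in the day 14 values was not tested.

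The other genes of the system were described from 2 lists, 22 partners, crosslinkers and relatives and 11 proteases that can cleave elastin or microfibrils. In fibroblast-like cells, of the 18, 17 and 17 partners that could be compared, 4, 5 and 4 were 2-fold or more higher than on day 0 and 2, 3 and 2 lower on days 3, 7 and 14. Of all genes compared, 3.99%, 5.01% and 3.29% were higher and 4.85%, 3.91% and 2.27% lower. Lox, a lysyl oxidase that crosslinks elastin and collagen, stood at 178, 706, 972 and 723 CPM and was 3.96 to 5.45 times its day 0 level. Loxl2, a relative of Lox, stood at 42.1, 359, 221 and 109 CPM.

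Fbn2, the fibrillin of developing tissue, had 0 UMIs in the fibroblast-like cells of day 0 and stood at 14.8, 173 and 137 CPM afterwards, at least 8.58-fold, 103-fold and 81.9-fold higher by the lower exact limits of the ratios. Ltbp4, which binds latent TGF-beta and Fbln5 protein, stood at 995, 114, 321 and 518 CPM, with a day 3 level 0.115 times that of day 0 (0.104 to 0.127). Adamtsl2, a microfibril-associated protein, went from 106 CPM on day 0 to 6.69, 19.6 and 3.03 CPM. Fbln7 was high on day 14 alone, at 275 CPM against 59.3 CPM on day 0.

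Among the proteases, 6, 7 and 6 could be compared in fibroblast-like cells. On days 3, 7 and 14, 1, 2 and 3 were higher than on day 0 and 2, 1 and none were lower (3.99%, 5.01% and 3.29% of all genes were higher and 4.85%, 3.91% and 2.27% lower), the rest staying within 2-fold (Ctsb at 444, 526, 501 and 483 CPM). The second higher one on day 7 was Ctss, a cathepsin of immune cells, with 0 UMIs on day 0, 13.8 CPM on day 7 and 1449 CPM in the immune-like cells of day 7. Mmp14, a membrane-bound metalloprotease, stood at 76.1, 330.1, 523 and 388 CPM, and its day 7 level was 6.87 times that of day 0 (5.86 to 8.11). Htra1, a serine protease, stood at 801, 241, 502 and 670 CPM, another dip on day 3. Mmp12, the macrophage elastase, did not exceed 1.03 CPM in fibroblast-like cells and stood at 130.0 CPM in immune-like cells on day 7.

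In smooth muscle-like cells, 3 of 14 partners were higher on day 14 than on day 3 and none lower, and 1 of 6 proteases was higher, where 2.23% of all genes were higher and 3.64% lower. Lox stood at 177, 889, 886 and 570.5 CPM on days 0, 3, 7 and 14, and Ltbp4 at 747, 144, 152 and 672 CPM, so Ltbp4 was low on days 3 and 7 in this class as well. Within the Rgs5 and Wisp2 cluster, 8 of 17 partners were higher on day 7 than on day 3 and 3 were lower (5.74% and 7.66% of all genes). Lox went from 544 to 1731 CPM, a ratio of 3.18 (2.93 to 3.46), and Ltbp4 from 52.6 to 307 CPM, a ratio of 5.83 (4.50 to 7.68).

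The genes with the pattern most like each of the 10 were sought over 17 sums of a non-immune sub-cluster and day with at least 20 cells, among 11713 genes, by Pearson's r of the log2 level. These sums share libraries and depths, so the values are descriptions. Lox was the gene most like Eln (r = 0.841), followed by Notch3 and Kcnj15. Serpinf1 was most like Fbln1 (r = 0.993), Bmp1, which encodes a protease that processes procollagen and the lysyl oxidase precursor, most like Mfap5 (r = 0.972), Igsf10 most like Mfap2 (r = 0.965), Creb3l1 most like Efemp2 (r = 0.958) and Itgbl1 most like Mfap4 (r = 0.940). For Fbn1 it was Igdcc4 (r = 0.921), for Fbln5 Stk17b (r = 0.890), for Fbln2 the interferon-induced gene Oasl2 (r = 0.882) and for Emilin1 the actin crosslinker Actn1 (r = 0.874). Among the 10 themselves, Mfap2 and Mfap5 were most alike (r = 0.934) and Mfap5 and Emilin1 least (r = -0.619).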

How the data were processed

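UMI counts, not normalized, were deposited for each gene and barcode, made by the authors with Cell Ranger. The version is 3.0.2 per the file headers, whereas the study's methods name an earlier one. The genome is named GRCh38 in the study's methods and processing notes, which is a human build name given for mouse reads. The only coordinates printed are therefore those of the RefSeq promoter table, in its own build. Barcodes were kept from 200 genes upwards and up to 20% mitochondrial UMIs. Scrublet's own threshold marked 17 doublets, so the highest scores were removed at 0.8% per 1000 barcodes (106 barcodes, 1.72%).

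Counts scaled to 10000 per cell were log-transformed, and 2000 variable genes, without the 10 genes and the partner and protease lists, gave 30 components, 15 neighbours and 30 Leiden clusters at resolution 1 (scanpy 1.11.5, igraph 0.11.9). A class name needed 3 markers, each at 50 CPM or more, in 10% of cells and 3 times the lower quartile of clusters. A shallow cluster, with a median depth under its library's median divided by 3, also needed 2 markers among its 10 leading genes. By that further rule 586 cells stayed unnamed. Their clusters met the level for 5 to 15 markers of a class, but had 0 of them among the leading genes. A cluster best fitting fibroblasts was held out where more pericyte than fibroblast markers were among its 10 leading genes. The naming rule was changed after cluster values, Eln included, had been seen, and 4 rules were tried. The first called the Rgs5 and Wisp2 cluster pericyte-like, the second divided it, the third placed it with the fibroblast-like cells and the fourth, used here, held it out. The study's own annotation was not used.

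UMIs were summed per class and day. Levels carry exact Poisson intervals and ratios exact conditional Clopper-Pearson intervals (SciPy 1.17.1), counting error only. Genes with 20 UMIs over both sums and 10 CPM in either were compared, and called from 2-fold on log2((CPM + 10)/(CPM + 10)). Ratios and their intervals were checked on simulated Poisson counts, which hold no spread between cells or libraries, so the check covers counting error alone. The 10 genes, the lists, the markers and the measures were chosen with earlier results of these data known. From each list up to 6 partners, with Lox, and 3 proteases with the largest log2 ratios in a comparison were eligible for naming, and those given in the text are a selection; Ctsb and Ctss were named after their values were seen. Alternatives were another pseudocount, mean of cells, resolution 2, separate clustering, no doublet removal, thinning to 1000 UMIs, a 10% mitochondrial limit, no filter on low counts and, added after the data were seen, leaving out or adding single clusters or copies.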

Additional observations from a re-analysis of the deposited data

Results flagged for a closer look

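For 10 ratios between days, of the genes compared in both classes, the counting intervals of the fibroblast-like and the smooth muscle-like class lay on opposite sides of 1. Each day is 1 library, so the difference between the classes was not tested. The fibroblast-like ratio is given first. At day 7 against day 0 the ratios were 0.363 and 6.71 for Fbln1, 0.613 and 1.56 for Fbln5, and 1.71 and 0.534 for Mfap5. At day 14 against day 0 they were 0.615 and 2.11 for Fbln5, and 0.768 and 2.13 for Mfap4. As means of cells smooth muscle-like Mfap4 stood at 792 CPM on day 0 and 814 CPM on day 14. Without the copies these means were 974 and 761 CPM, so the direction of Mfap4 in this class is not settled. The smooth muscle-like sums of day 0 came from 16 cells, with 1 UMI for Fbln1. Eln at day 7 against day 3 had ratios of 3.07 and 0.872, but the smooth muscle-like log2 ratio, -0.20, was 0.33 as the mean of cells, 0.30 with thinning, 0.46 at resolution 2, 0.03 with separate clustering and 0.13 at the 10% mitochondrial limit, so its direction is not settled. At day 14 against day 7, the ratios were 0.425 and 1.85 for Eln, 1.69 and 0.389 for Fbln1, 0.922 and 1.88 for Mfap4, and 0.903 and 2.17 for Mfap5. Without the deep smooth muscle-like cells that cluster with fibroblast-like ones, the smooth muscle-like ratios of day 14 to day 7 were 1.57 for Eln, 2.66 for Fbln1, 0.730 for Mfap4 and 1.73 for Mfap5, so those of Fbln1 and Mfap4 turned to the fibroblast-like direction. The smooth muscle-like Eln ratio of 1.85 is a ratio of sums, while the median cell of the main smooth muscle-like cluster had 0.576% of its UMIs from Eln at day 7 and 0.598% at day 14.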

How the results depend on the processing

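No paired analysis was possible because each day is 1 library. Of 80 log2 ratios of the 10 genes, 32 of them past 2-fold, the choices that apply to all 80 kept the sign of 68 (thinning) to 80 (1 CPM added, or copies left out), and of the 32, between 24 (mean of cells) and 32 stayed past 2-fold. The Rbp4 and Fmo2 cluster alone kept 27 of 30 signs and 6 of 10 calls, the class without the Saa3 and Prg4 cluster 52 of 60 and 24 of 27, that with the Rgs5 and Wisp2 cluster 60 of 60 and 26 of 27, and leaving out the deep mixed sub-cluster 42 of 50 and 19 of 22. One called value changed sign, Fbln1 in smooth muscle-like cells at day 14 against day 3, which was -0.113 at resolution 2 and 1.14 here. The cause of the shifts was not tested.

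The median log2 ratio of the 10 genes in fibroblast-like cells moved more than its counting interval in these cases. At day 3 (0.01 here) it was -0.143 with separate clustering, -1.0 without doublet removal, 0.079 with thinning, 0.082 at the 10% mitochondrial limit, 0.178 without the Saa3 and Prg4 cluster, -0.12 with the Rgs5 and Wisp2 cluster, 0.118 in the Rbp4 and Fmo2 cluster alone and 0.297 as the mean of cells without copies. The counts of fibroblast-like genes past 2-fold at day 3, 1 higher and 3 lower here, were 0 and 0 as the mean of cells, 2 and 3 as that mean without copies, 0 and 3 with separate clustering and 1 and 5 without doublet removal. Eln itself ranged from -1.86 (no doublet removal) to 1.81 (without the Saa3 and Prg4 cluster) there, so its direction at day 3 is not settled. At day 7 (0.74 here) the median was 0.566 as the mean of cells, with or without copies, 0.553 at resolution 2, 0.564 with separate clustering, 0.363 with thinning, 0.593 at the mitochondrial limit, 0.589 without the Saa3 and Prg4 cluster, 0.494 with the Rgs5 and Wisp2 cluster and 0.376 in the Rbp4 and Fmo2 cluster alone. At day 14 (0.20 here) it was -0.191 with thinning and 0.009 in the Rbp4 and Fmo2 cluster alone. At resolution 2, at the mitochondrial limit and with separate clustering no cluster was held out.

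In smooth muscle-like cells at day 7 against day 3 (0.19 here) the median was 0.362 as the mean of cells, 0.421 at resolution 2, 0.329 with separate clustering, 0.332 at the mitochondrial limit and -0.024 without the deep mixed sub-cluster. At day 14 against day 3 (0.73 here) it was 0.117 at resolution 2, 0.149 with separate clustering, 0.444 with thinning and 0.376 without that sub-cluster. Without the filter on low counts, the background shares of called genes were lower, such as 2.23% in place of 3.99% higher at day 3 in fibroblast-like cells. Depth limits the smooth muscle-like values of day 0 and all endothelial-like values.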
